A study of Mus musculus with 10 samples.

Results

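The complement, coagulation and fibrinolysis genes described here are 39 genes chosen by name, of 35527 gene names on the arrays. They fall into 5 arms: 9 classical and lectin pathway genes, 6 alternative and terminal pathway genes, 6 complement receptors and regulators, 14 clotting genes and 4 fibrinolysis genes. All 39 names were found in the files, where C1s is the older name of C1s1. Their transcripts were measured in infrarenal aorta of male C57BL/6J mice aged 10 weeks on a normal diet, 7 days after surgery. In the PPE group (5 mice) the aorta was infused for 5 min at 100 mmHg with type I porcine pancreatic elastase at 1.5 U per mL in saline, a protease that breaks down elastic fibres, as a model of abdominal aortic aneurysm. In the sham group (5 mice) saline was infused in the same way. Each array compared RNA of 1 aorta (red dye) with a common reference RNA of mouse cell lines (green dye). A level below is therefore a log2 ratio of aorta over reference, and a change is the PPE mean minus the sham mean of that ratio. Levels of different genes are not set against each other, since each is relative to its own level in the reference.

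Complement is a set of plasma proteins that mark and lyse targets. The classical pathway starts with C1q, C1r and C1s, the alternative pathway amplifies C3 cleavage through factors B and D, and the fragments C3a and C5a call in leukocytes through their receptors. Clotting starts when tissue factor, on cells outside the blood, meets factor VII, and is held back by tissue factor pathway inhibitor, thrombomodulin and protein C. Fibrinolysis removes the clot once plasminogen is cut to plasmin by tissue-type or urokinase-type plasminogen activator. Much of the plasma pool of these proteins is made in the liver, and many of the genes are also transcribed by macrophages, vascular cells or fat.

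The red signal was well above background on 37.6% (sham 5) to 65.8% (PPE 1) of spots, and no spot was saturated. The arrays lay on 5 slides. Sham 1, PPE 1 and PPE 2 shared slide 1, scanned on a day of its own. Sham 2 and 3 shared slide 2 with PPE 3 and 4, while sham 4, sham 5 and PPE 5 lay on a slide each. The arrays also differed in the cell type markers they carried. Of 10 macrophage markers 8 rose with PPE, with a mean log ratio of the list of 0.50 to 0.91 over the sham arrays and 2.53 to 3.76 over the PPE arrays. Of 7 neutrophil markers 5 rose (0.40 to 0.64 in sham, 2.89 to 4.05 in PPE). Of 8 smooth muscle markers 6 fell (3.26 to 4.16 in sham, 1.74 to 2.88 in PPE), and the labelled tissue carried them on every sham array. Of 8 fibroblast markers 5 rose, and of 7 lymphocyte markers 2. None of 8 endothelial markers (median change 0.11) and none of 7 platelet markers passed the test. By the same test, 13.8% of all names rose and 9.96% fell. In whole tissue, more cells of a type and more RNA per cell cannot be told apart. The part of these marker shifts in the results below was not tested.

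Of the 39 genes, 35 were measurable over background in 5 or more of the 10 arrays and were tested. Past an adjusted p of 0.01 (limma, adjusted over the 22520 names tested), 14 rose with PPE, which is 40% of those tested beside 13.8% of all names. A further 2 fell, 5.71% beside 9.96% of all names. In either direction 16 were called, 45.7% beside 23.8%. Changes of over 2-fold were seen for 11 of the genes that rose and both that fell, and 13.1% of all names were called with over 2-fold. The median change was 0.74 over the tested members and 0.02 over all names. The 5 sham and 5 PPE values did not overlap for 15 members, 42.9% beside 25.5%, and these were the called members other than Plau. In the aorta channel taken alone, 20 members rose and 4 fell, beside 12.8% and 14.4% of all names, and 15 of the 16 called members kept their call, Pros1 being the exception. In the reference channel alone no member passed (limma), with 0.0666% of all names higher and 0.351% lower. At an unadjusted p of 0.05, 24 members passed, beside 43.6% of all names. The other 4 genes, Cd46, F2rl1, Proc and Plg, were too dim to test. When arrays were centred on their median in place of loess, the median change of all names moved to 0.41, the calls over all names became 408 higher and 8 lower, and of the members Cfi was called (limma adjusted p = 0.00767). Cfi passed the filter on dim probes through its PPE arrays alone, so that its place among the genes that rose was in part set by the filter. The same holds in part for Tfpi2 and F7, above background on 1 and 2 sham arrays and on all 5 PPE arrays. With median centring the changes of Cfd, F10, F2r, Thbd, Gas6 and Plat, none of them called, turned from negative to positive.

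**Figure D1:**
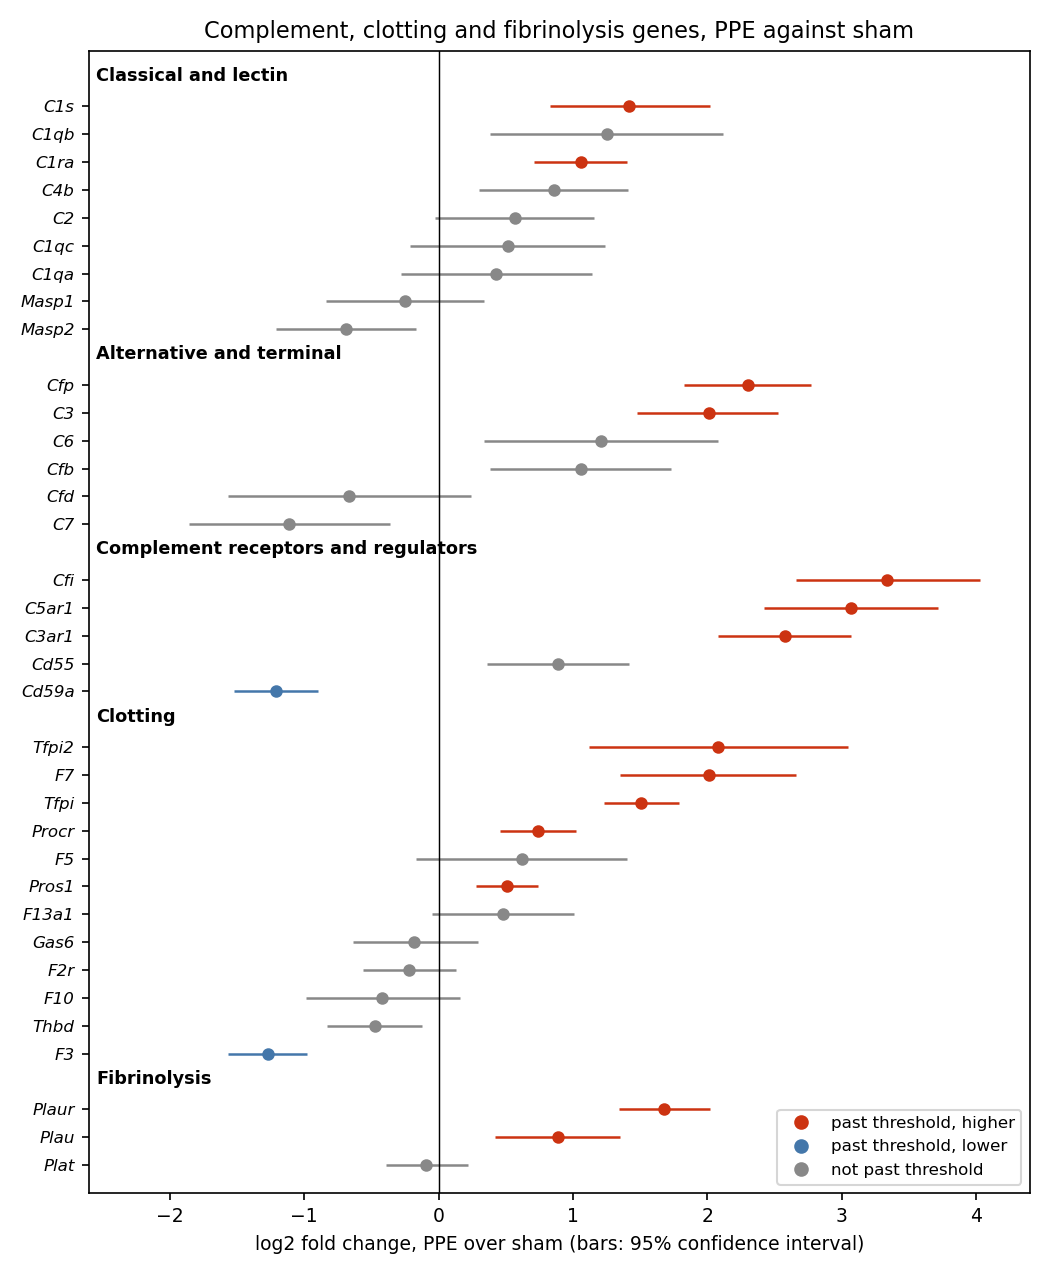
Change of each of the 35 tested genes, as the log2 fold change of PPE over sham (x axis) with its 95% confidence interval, by arm (5 arrays a group). Red marks the 14 genes past the threshold and higher, blue the 2 past it and lower, and grey the 19 not past it. F3 has the lowest value at -1.27 and C5ar1 stands at 3.07, while Cfi is drawn at its fitted 3.34 although its sham arrays were not above background.

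RefSeq promoters (GRCm38.p6) were at hand for 27 members. They were searched on both strands, over 250 bases before to 50 after the start site, for 4 sets of letters that stand for elements of inflammatory transcription factors. The C/EBP letters TTGCNNAA stood in 5 of the 27 (18.5%, beside 12.2% of 27025 genes). These were C1ra, C1s, C3, Plaur and Procr, each of which rose, and the C1ra match lies after the start site. Of the 27 members with a promoter, with or without these letters, 12 rose. Whether the letters bear on the rise was not tested. The NF-kappaB letters, GGGA and then CC after 4 bases of any kind, stood in 12 (44.4%, beside 22.9%), of which 6 rose. The STAT letters TTCNNNGAA stood in 4 (14.8%, beside 9.55%) and the interferon-stimulated letters, GAAA and GAAA with 2 bases between, in 2 (7.41%, beside 3.99%). Members that rose and members that did not both held NF-kappaB letters. The 250 bases before the start are shown for 4 members, 3 that rose and hold both the C/EBP and the NF-kappaB letters and F3, which fell and holds only the latter. Capitals mark matches to any of the 4 sets on either strand, and overlapping matches run together. C3, the central complement component, lies on the minus strand at chr17:57228137-57228386. Plaur, the urokinase receptor, lies on the plus strand at chr7:24462233-24462482, Procr, the endothelial protein C receptor, on the plus strand at chr2:155750967-155751216, and F3, tissue factor, on the plus strand at chr3:121723287-121723536.
C3: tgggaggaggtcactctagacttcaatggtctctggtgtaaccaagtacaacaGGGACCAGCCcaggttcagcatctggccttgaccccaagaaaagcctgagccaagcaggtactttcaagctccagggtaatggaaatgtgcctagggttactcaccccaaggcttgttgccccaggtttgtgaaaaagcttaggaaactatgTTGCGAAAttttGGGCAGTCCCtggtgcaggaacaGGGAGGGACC
Plaur: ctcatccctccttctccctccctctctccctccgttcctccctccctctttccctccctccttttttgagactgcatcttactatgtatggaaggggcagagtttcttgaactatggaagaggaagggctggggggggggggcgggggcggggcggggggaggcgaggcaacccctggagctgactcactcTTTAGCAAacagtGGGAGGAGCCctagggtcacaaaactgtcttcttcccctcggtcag
Procr: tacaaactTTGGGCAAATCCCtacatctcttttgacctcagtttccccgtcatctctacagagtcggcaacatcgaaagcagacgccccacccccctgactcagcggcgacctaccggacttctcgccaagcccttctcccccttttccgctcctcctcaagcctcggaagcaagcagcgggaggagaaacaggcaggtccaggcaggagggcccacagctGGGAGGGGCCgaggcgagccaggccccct
F3: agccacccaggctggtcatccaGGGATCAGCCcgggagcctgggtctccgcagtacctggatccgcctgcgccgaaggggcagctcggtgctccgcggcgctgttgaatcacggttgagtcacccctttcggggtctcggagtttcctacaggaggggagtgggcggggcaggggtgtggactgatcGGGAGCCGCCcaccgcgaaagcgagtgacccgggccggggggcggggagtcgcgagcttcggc
In the C3 window the C/EBP letters start 45 bases before the start site. In the Plaur window they start 59 bases before it and are read on the opposite strand. A match is a run of letters and not a measured binding site.

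In the classical and lectin arm, C1ra and C1s rose and none of 9 genes fell (median change 0.57). These 2 calls among 9 genes lie near the 23.8% of all names called in either direction. C1ra encodes the protease C1r, which activates C1s. Its log ratio was 1.10, 1.11, 0.78, 1.05 and 1.23 on sham arrays 1 to 5 and 2.44, 2.47, 1.96, 1.82 and 1.87 on PPE arrays 1 to 5. The change was 1.06 ± 0.16 (SE, n = 5 and 5, limma adjusted p = 3.00e-04), or 2.08-fold. C1s encodes the protease that cleaves C4 and C2. Its values were 1.26, 0.79, 1.08, 0.81 and 1.02 in sham and 2.89, 2.88, 2.62, 2.39 and 1.30 in PPE, a rise of 1.42 ± 0.27 (limma adjusted p = 0.00162). PPE 5 lay close to the highest sham array, and the other PPE arrays were at 2.39 or above. These probes lie in mm9 at chr6:124472674-124472733 (C1ra) and chr6:124480775-124480834 (C1s), and may also bind transcripts of the near-identical copies of these genes.

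The ratios of the 3 chains of C1q, the recognition unit made mainly by macrophages, did not pass the test, although their aorta signal rose. C1qa was at 4.12, 3.50, 3.0, 4.0 and 3.75 on the sham arrays and 4.55, 5.03, 3.42, 3.40 and 4.12 on the PPE arrays. PPE 3 and PPE 4, both on slide 2, were within the sham range, PPE 5 was at its upper edge, and PPE 1 and PPE 2 on slide 1 were above it. The change of C1qa was 0.43, with a 95% confidence interval of -0.28 to 1.14 (limma adjusted p = 0.349), while C1qb stood at 1.25 (0.38 to 2.12, adjusted p = 0.0286) and C1qc at 0.52 (-0.21 to 1.24, adjusted p = 0.264). C1qa was at -0.17 on the scanner software's own log ratios, and C1qb passed with slide as a block (1.25, adjusted p = 0.00232). A fit with slide as a block takes its change from slides 1 and 2 alone, since sham 4, sham 5 and PPE 5 lay on a slide each.

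The channels were then taken apart, each as log2 of the processed signal minus the array's 75th percentile. The aorta channel of C1qa was at 2.59, 2.33, 2.51, 2.05 and 3.16 on the sham arrays and 5.82, 4.53, 4.85, 5.29 and 4.81 on the PPE arrays. These groups did not overlap, and the channel rose by 2.53 ± 0.27 (SE, limma adjusted p = 3.17e-05). The reference channel of C1qa, in which every array held the same kind of RNA, was at -1.68, -1.75, -0.97, -2.97 and -1.33 in sham and 1.52, -0.45, 1.48, 2.03 and 0.31 in PPE. It too lay higher on every PPE array, by 2.72 on average (limma adjusted p = 0.0436). For C1qb the aorta channel rose by 2.55 and the reference channel stood 1.91 higher (adjusted p = 2.45e-05 and 0.0158). For C1qc the values were 2.57 and 2.37 (adjusted p = 8.52e-06 and 0.022). The ratio change of these genes was thus smaller than the rise of their aorta signal, and their reference signal stood higher as well. The channels were scaled in another way than the ratio, so the channel changes do not add up to the ratio change. How much of the aorta rise reflects C1q transcripts was not tested. Why the reference signal moved was not tested. Among the other members, the reference channel separated the groups without overlap for Cfb and C5ar1 alone. The share of all names that separate in this channel was not counted, so nothing is read from that count.

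**Figure D2:**
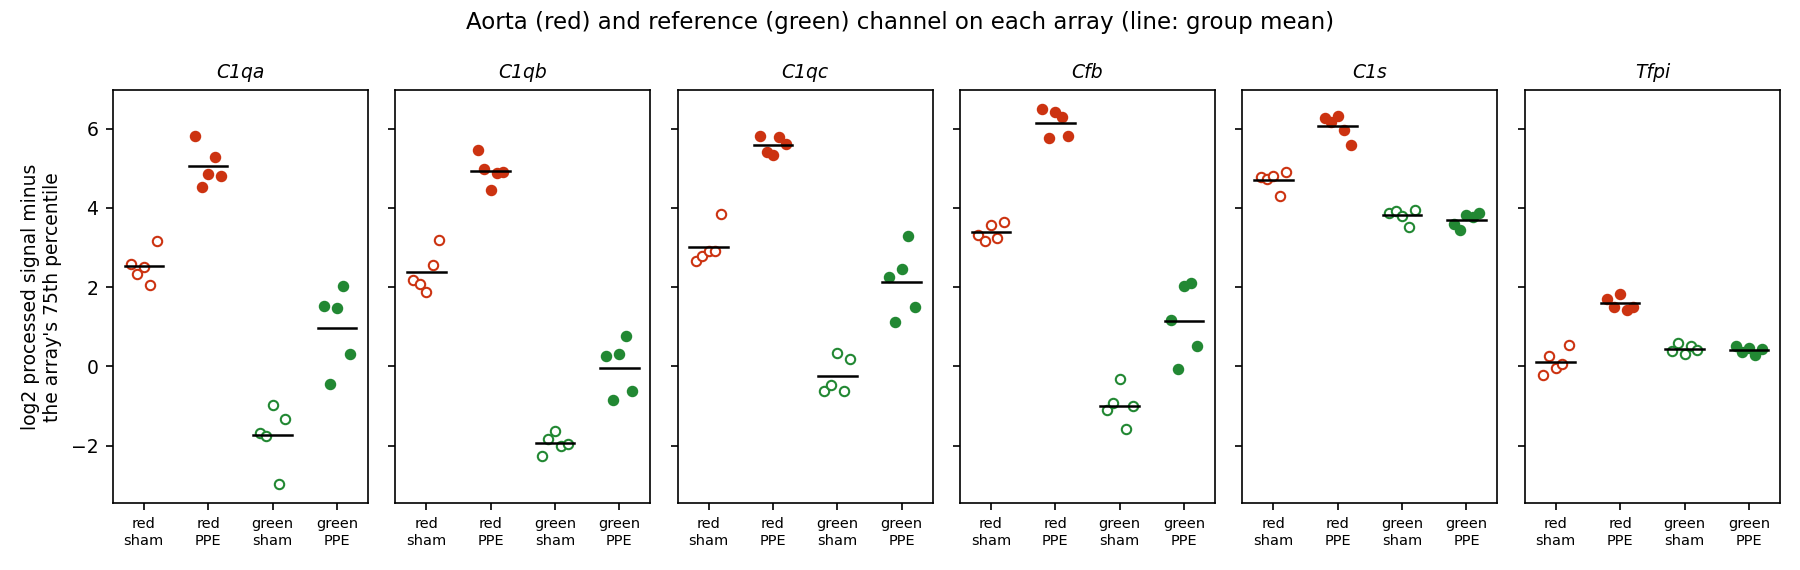
Log2 processed signal minus the array's 75th percentile (y axis) in the aorta channel (red) and the reference channel (green) on 5 sham (open) and 5 PPE (filled) arrays, with the group mean as a line. For C1qa, C1qb, C1qc and Cfb both channels lie higher on every PPE array, while for C1s and Tfpi the reference channel overlaps between groups.

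The substrates C2 and C4b were at 0.57 and 0.86 by ratio (limma adjusted p = 0.131 and 0.0207), and rose by 1.03 and 1.37 in the aorta channel (adjusted p = 5.18e-04 and 1.42e-04). Their reference channel stood higher by 0.65 and 0.56, with overlapping groups (limma adjusted p = 0.608 and 0.802). C4b also passed with slide as a block (0.89, adjusted p = 0.0022). The lectin pathway proteases Masp1 and Masp2 were at -0.25 and -0.69 (adjusted p = 0.521 and 0.0427). Masp2 passed as lower with slide as a block (-0.63, adjusted p = 0.00346) and in the aorta channel alone (-1.70, adjusted p = 1.88e-04). Its signal was near background, however, and above it on 4 sham and 2 PPE arrays only. The other tested Masp2 probe was at -0.40 and did not pass (limma adjusted p over all probes = 0.192). The C4b probe may also read C4a, and Masp1 was at 0.21 on the scanner software's log ratios.

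In the alternative and terminal arm, C3 and Cfp rose, and 4 of the 6 genes did not pass (median change 1.13). Of all names, 23.8% were called in either direction. C3 is the protein on which the complement pathways meet. Its log ratio was 2.38, 1.68, 2.17, 2.29 and 1.84 on the sham arrays and 4.54, 4.65, 3.91, 3.94 and 3.37 on the PPE arrays. The lowest PPE array stood 0.99 above the highest sham array. C3 thus rose by 2.01 ± 0.24 (SE), or 4.02-fold, with limma adjusted p = 6.49e-05, and its second probe by 1.94. The aorta channel of C3 alone rose less, by 1.29 (limma adjusted p = 8.77e-05). Its reference channel changed by -0.64, with overlapping groups (limma adjusted p = 0.796). Cfp encodes properdin, which steadies the alternative pathway convertase and is made by leukocytes. It was at 1.03, 0.95, 1.04, 1.64 and 1.40 in sham and 4.15, 3.74, 3.17, 3.07 and 3.43 in PPE. All PPE arrays were above 3, and the change was 2.30 ± 0.22, or 4.93-fold (limma adjusted p = 1.14e-05).

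The proteins that form the alternative convertase with C3 gave other values. Cfb, factor B, was at 4.38, 3.62, 3.50, 4.18 and 3.99 in sham and 5.56, 5.90, 4.44, 4.32 and 4.75 in PPE, a change of 1.06 ± 0.31 that missed the threshold (limma adjusted p = 0.0192). PPE 4 lay within the sham range and PPE 3 just above it. The aorta channel of Cfb rose by 2.76 ± 0.19 (limma adjusted p = 1.93e-06), the reference channel stood 2.14 higher, and the ratio passed with slide as a block (1.03, adjusted p = 0.0018). Cfd, factor D or adipsin, is a protease made chiefly by fat cells. Its values were 8.54, 7.35, 7.17, 7.84 and 7.93 in sham and 7.82, 8.21, 6.22, 6.12 and 7.13 in PPE. PPE 3 and PPE 4 lay well below all sham arrays and PPE 5 just below them, while PPE 1 and PPE 2 lay within the sham range. The change of Cfd was -0.67 ± 0.41 (limma adjusted p = 0.247), and on slide 1 both PPE arrays lay below the sham array they shared it with. With slide as a block Cfd passed as lower (-0.87, adjusted p = 0.00507), as it did in the aorta channel alone (-1.23, adjusted p = 9.86e-04). The mean log ratio of 8 adipocyte markers ran from 4.44 to 5.55 in sham and from 3.59 to 5.03 in PPE, with 1 of the 8, Lipe, passing as lower. The share of fat in that change was not tested. Among terminal components, which build the membrane pore, C6 was at 1.21 (adjusted p = 0.0334), and 1.43 with slide as a block (adjusted p = 0.00147), and C7 at -1.11 (adjusted p = 0.0256).

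Among complement receptors and regulators, 3 of 5 tested genes rose, 1 fell and the median change was 2.58. Over all names, 13.8% rose and 9.96% fell. C3ar1 encodes the C3a receptor of myeloid cells. It was at -0.54, -0.29, -0.38, 0.11 and 0.27 in sham and 2.83, 2.78, 1.91, 1.97 and 2.57 in PPE. The groups lay 1.64 apart at their nearest arrays, and the change was 2.58 ± 0.23 (SE), or 5.96-fold (limma adjusted p = 6.91e-06). C5ar1 encodes the C5a receptor of neutrophils and macrophages. Its values were 1.11, 0.40, 0.46, 0.84 and 0.27 in sham and 4.69, 3.64, 3.22, 3.92 and 2.95 in PPE, a rise of 3.07 ± 0.30, or 8.38-fold (limma adjusted p = 1.42e-05). Both receptors rose beside the macrophage and neutrophil markers given above, whose part was not tested.

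Cfi, complement factor I, cuts C3b and C4b and so ends their activity. It exceeded background on none of the sham arrays and on every PPE array. The values were 0.10, 0.06, 0.07, -0.09 and -0.05 in sham and 4.17, 3.62, 3.34, 3.64 and 2.04 in PPE. PPE 5 was the lowest PPE array by 1.30. Against background the rise was at least 8.19-fold, a bound taken from the lowest measurable signal, with a limma adjusted p of 1.11e-05 from a fit that it entered through the PPE arrays alone. Cfi is known as a liver product. Of 8 hepatocyte markers, Apoa1 and Apob were not above background on any array, Alb, Ttr and Fgb were too dim to test, and Apoa2 fell by 0.95. Serpina1a and Ahsg were above background on all 10 arrays and did not pass, at -1.0 and 0.95 (limma adjusted p = 0.0964 and 0.0252).

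Of the regulators held on the cell surface, 1 passed the test. Cd59a, which stops the membrane attack pore from forming, was at 2.73, 2.42, 2.49, 2.96 and 2.50 in sham and 1.15, 1.75, 1.39, 1.43 and 1.34 in PPE. The groups did not overlap, and Cd59a fell by 1.21 on the log2 scale (SE 0.14, limma adjusted p = 5.60e-05). Cd55, decay-accelerating factor, was at 0.89 and missed the threshold (adjusted p = 0.0133). Cd46, membrane cofactor protein, was above background on 1 sham and 2 PPE arrays and was not tested. The Cd59a and Cd55 probes may also read the paralogues Cd59b and Daf2.

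**Figure D3:**
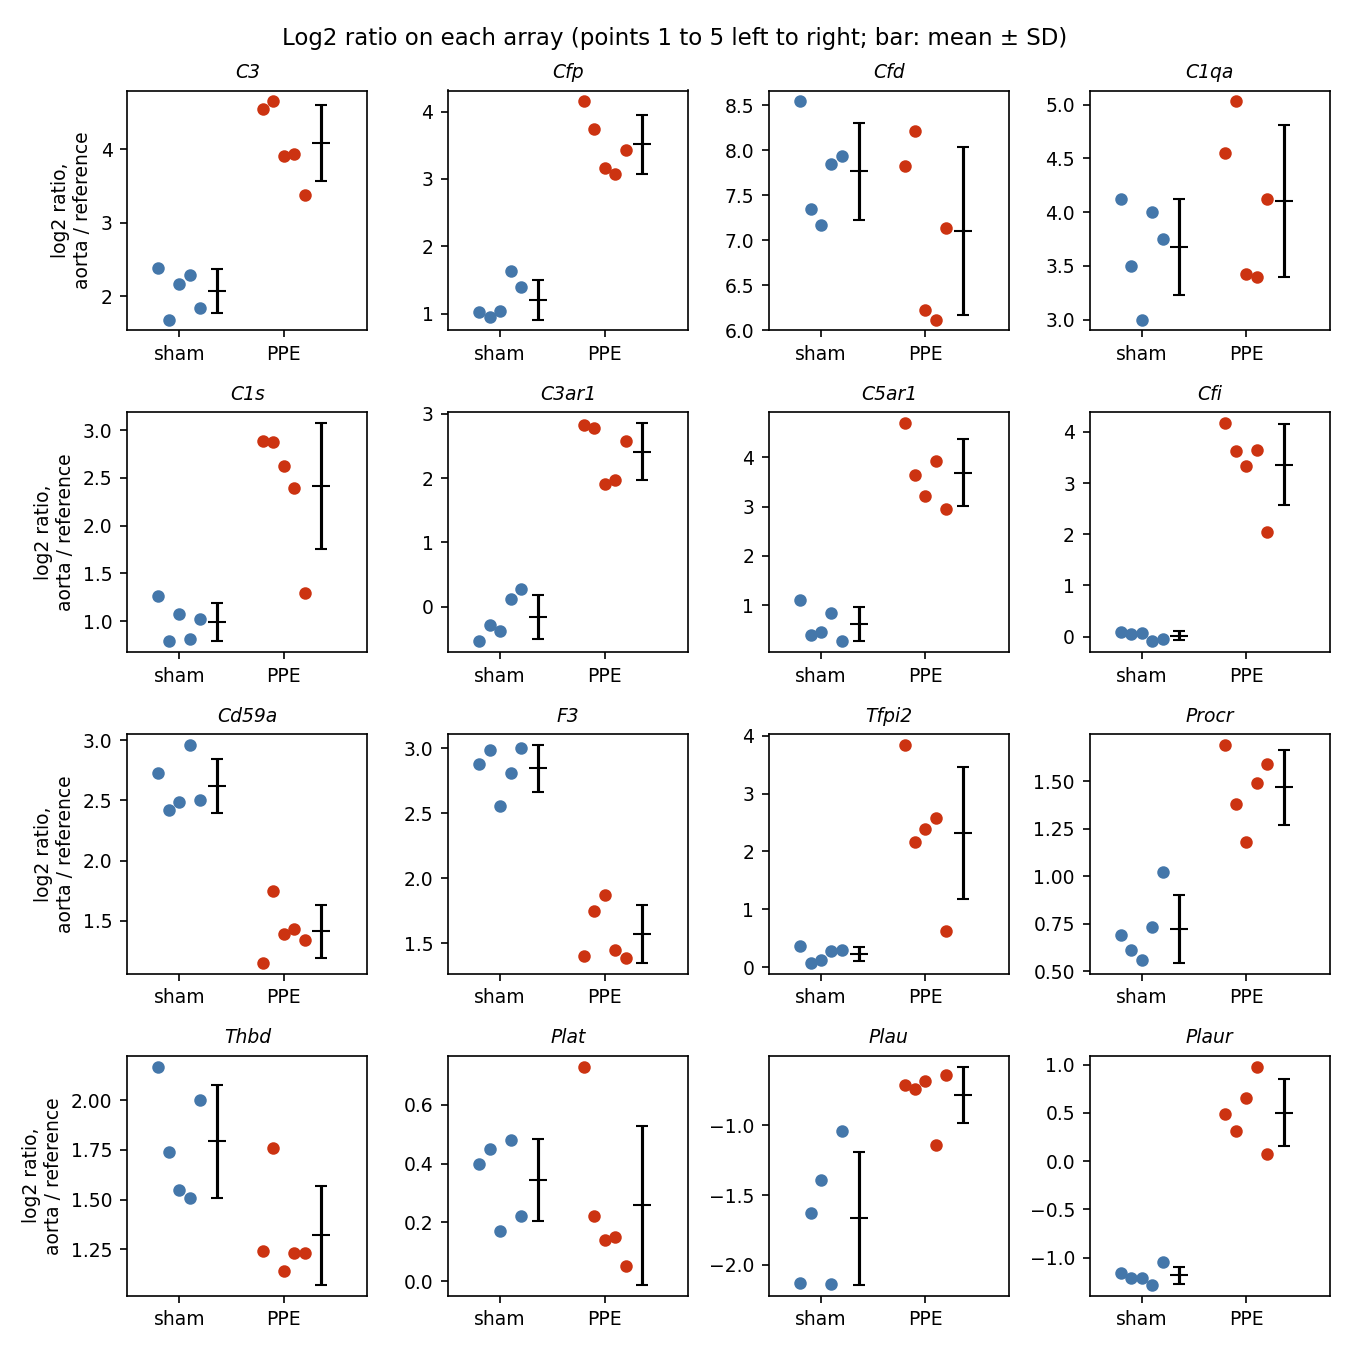
Log2 ratio of aorta over reference (y axis, own scale for each gene) on each of 5 sham (blue) and 5 PPE (red) arrays for 16 members. Points run from array 1 to 5, and bars give the group mean ± SD. The groups separate for C3, Cfp, C1s, C3ar1, C5ar1, Cfi, Cd59a, F3, Tfpi2, Procr and Plaur, and overlap for Cfd, C1qa, Thbd, Plat and Plau.

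Of 12 clotting genes tested, 5 rose, F3 fell and 6 did not pass (median change 0.49), where 23.8% of all names were called. F3 encodes tissue factor, which starts clotting and is abundant in the vessel wall outside the endothelium. Its log ratio was 2.88, 2.99, 2.56, 2.81 and 3.0 on the sham arrays and 1.40, 1.75, 1.87, 1.45 and 1.39 on the PPE arrays. The highest PPE value stood 0.69 below the lowest sham value. F3 fell by 1.27 (SE 0.13, limma adjusted p = 2.65e-05), its second probe by 1.24. Smooth muscle markers fell in the same arrays, as given above, and their part was not tested.

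F7 encodes factor VII, the partner of tissue factor. It was above background on 2 sham arrays and all 5 PPE arrays, at 0.17, 0.25, -0.03, 0.41 and 0.12 in sham and 2.94, 2.79, 1.06, 2.05 and 2.11 in PPE. PPE 3 was the lowest PPE array and still 0.65 above the highest sham array. The rise was 2.01 ± 0.30 (SE, limma adjusted p = 3.01e-04), with 2.16 at the second probe. That probe shares bases with the first and was above background on only 5 arrays. The inhibitors of this pair rose as well. Tfpi, tissue factor pathway inhibitor, was at -0.50, -0.20, -0.26, -0.25 and 0.20 in sham and 1.35, 1.26, 1.46, 1.25 and 1.24 in PPE. The PPE arrays lay within 0.22 of each other, and the rise was 1.51 ± 0.13, or 2.85-fold (limma adjusted p = 5.90e-06). Tfpi2, a related inhibitor with a matrix location, was above background on 1 sham array and all 5 PPE arrays, and its reference channel on none. Its values were 0.37, 0.07, 0.13, 0.28 and 0.30 in sham and 3.84, 2.16, 2.38, 2.57 and 0.63 in PPE. PPE 1 was highest and PPE 5 lay close to the sham arrays. The change of Tfpi2 was 2.08 ± 0.44 (limma adjusted p = 0.00319), and its size ran from 1.70 to 5.01 over the alternatives, since its sham and reference signals lie near background.

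The protein C system, which shuts off clotting on endothelium, gave smaller values. Procr, the endothelial protein C receptor, rose by 0.74 ± 0.13 (SE), with sham arrays between 0.56 and 1.02 and PPE arrays between 1.18 and 1.69 (limma adjusted p = 8.42e-04). Pros1, the protein C cofactor protein S, rose by 0.51 ± 0.10, from 1.67 to 1.97 in sham to 2.13 to 2.48 in PPE (limma adjusted p = 0.00264). It kept its call in 21 of 26 alternatives. In the aorta channel alone it was at 0.26 with overlapping groups (limma adjusted p = 0.144). Thbd, thrombomodulin, was at 2.17, 1.74, 1.55, 1.51 and 2.0 in sham and 1.24, 1.76, 1.14, 1.23 and 1.23 in PPE. PPE 2 alone of the PPE arrays lay inside the sham range, and the change of -0.47 ± 0.16 missed the threshold (limma adjusted p = 0.042). Proc, protein C itself, was above background on 2 arrays of each group and was not tested.

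The remaining clotting genes did not pass. F13a1 encodes the A chain of factor XIII, which cross-links fibrin and is carried by macrophages. It was at 4.78, 4.06, 4.18, 4.72 and 4.82 in sham and 5.63, 4.87, 4.70, 5.32 and 4.43 in PPE, a change of 0.48 (95% confidence interval -0.05 to 1.01, limma adjusted p = 0.15). The groups overlapped. F5, the cofactor of factor Xa, was at 0.62 (adjusted p = 0.213), the thrombin receptor F2r at -0.22 (adjusted p = 0.326) and Gas6, a ligand of TAM receptors, at -0.18 (adjusted p = 0.571). F2rl1, protease-activated receptor 2, was above background on no sham array and on 2 PPE arrays. Its values were 0.27, 0.12, -0.02, 0.10 and -0.12 in sham and 0.64, 0.33, 0.02, 0.11 and -0.06 in PPE, with PPE 1 highest, and it was not tested.

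F10, factor X, gave opposite values at its probes. The probe that stands for the gene here, A_55_P2106078 at chr8:13056119-13056178 (mm9), was at 1.90, 2.31, 1.60, 1.91 and 2.33 in sham and 1.09, 1.88, 1.52, 1.03 and 2.44 in PPE. Its change was -0.42 ± 0.26 (SE, limma adjusted p = 0.253). The second probe, A_51_P174961 at chr8:13055774-13055833, carries the same transcript accession and starts 345 bases away. It was at 0.01, 0.06, 0.10, 0.77 and 0.73 in sham and 4.25, 3.72, 2.86, 3.26 and 3.16 in PPE, with no overlap. Its change was 3.11 ± 0.26 (limma adjusted p over all probes = 5.90e-06). Both probes were above background on all 10 arrays, so the call on F10 depends on the probe taken. With the mean of both probes the change was 1.35 (limma adjusted p = 1.51e-04).

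Tfpi had 3 tested probes. A_66_P132295, which stands for the gene, and A_55_P2095360 share a transcript accession and changed by 1.51 and 1.39. A_52_P670263, at chr2:84281022-84281081, carries the accession of another Tfpi transcript. It was at 0.50, 0.48, 0.49, 0.44 and 0.93 in sham and 0.86, 0.94, 0.85, 0.80 and 0.84 in PPE, overlapping through sham 5. Its change was 0.29 ± 0.11 (SE) and did not pass (limma adjusted p over all probes = 0.0684). The rise given for Tfpi is thus that of the former probes.

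**Figure D4:**
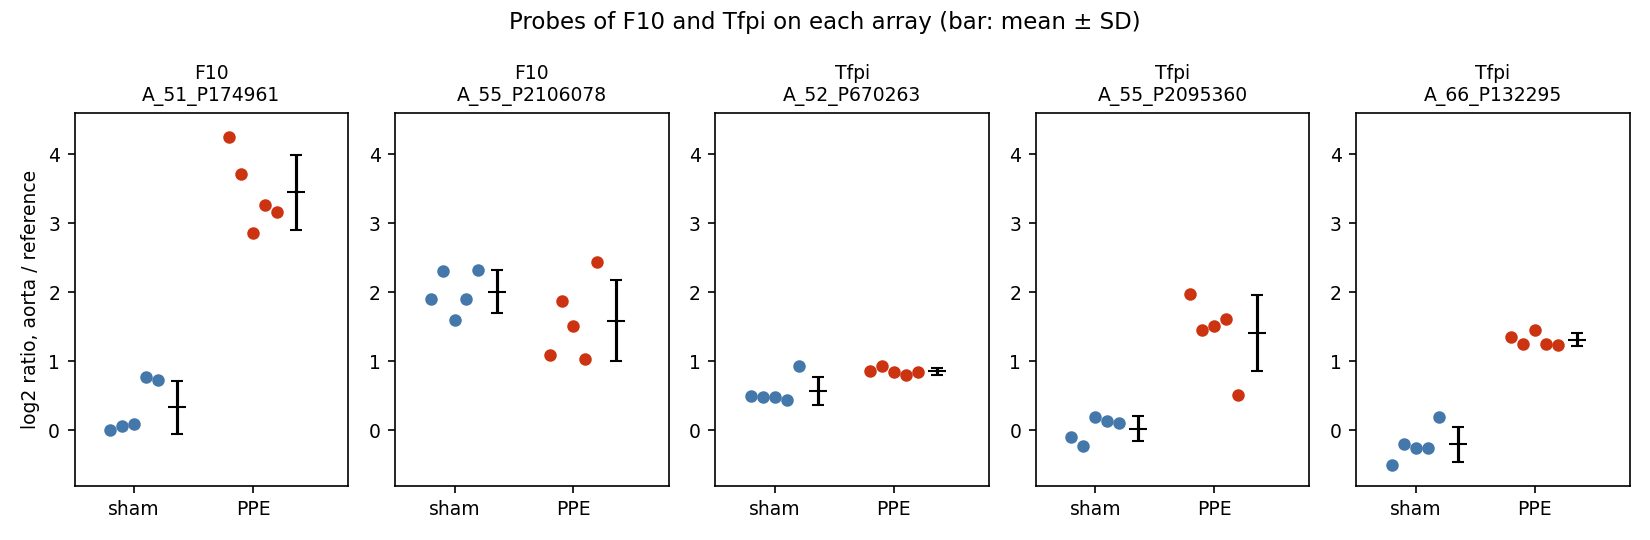
Log2 ratio of aorta over reference (y axis) on each of 5 sham (blue) and 5 PPE (red) arrays at the 2 tested probes of F10 and the 3 of Tfpi. Bars give the group mean ± SD. F10 rises by 3.11 at A_51_P174961 and stands at -0.42 at A_55_P2106078, and Tfpi changes by 0.29 at A_52_P670263 beside 1.39 and 1.51 at the other probes.

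In the fibrinolysis arm, the urokinase receptor and urokinase rose, 2 of the 3 genes tested, beside 13.8% of all names. Plaur, the receptor that holds urokinase on the cell surface, was at -1.16, -1.21, -1.21, -1.28 and -1.04 in sham and 0.49, 0.31, 0.66, 0.98 and 0.07 in PPE. All sham arrays were at -1.04 or lower and all PPE arrays above 0, a rise of 1.68 ± 0.16 (SE), or 3.21-fold (limma adjusted p = 1.01e-05). Plau, urokinase-type plasminogen activator, was at -2.13, -1.63, -1.39, -2.14 and -1.04 in sham and -0.71, -0.74, -0.68, -1.14 and -0.64 in PPE. It is the one called member whose groups overlap, since sham 5 lay above PPE 4. The rise of 0.89 ± 0.21 passed (limma adjusted p = 0.00645), but lost the call in 7 of the 10 fits that leave out 1 array, those without sham 1, 2 or 4 or PPE 1, 2, 3 or 5. Plat, the tissue-type activator of endothelium, was at 0.40, 0.45, 0.17, 0.48 and 0.22 in sham and 0.73, 0.22, 0.14, 0.15 and 0.05 in PPE. PPE 1 was highest and the groups overlapped. Its change was -0.09, with a 95% confidence interval of -0.39 to 0.22 (limma adjusted p = 0.682). Plg, plasminogen, the substrate of both activators, was not above background on any array.

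Other genes of these pathways were taken from lists beside the 39. Their counts stand beside 13.8% of all names higher and 9.96% lower, and no list was tested. Of 20 further complement genes tested 4 rose and 2 fell (median change 0.14), which lies near those shares. The largest rises were those of Itgax at 3.29, Itgb2 at 2.95, which encode chains of the leukocyte complement receptors, and C5ar2 at 2.26, the second C5a receptor, listed in the files as Gpr77. Itgam, which encodes another such receptor chain, was at 0.44 and did not pass (limma adjusted p = 0.0884). Serping1, the C1 inhibitor, was at 0.06 (adjusted p = 0.935). Of 15 further clotting genes 3 rose and none fell (median 0.22): Kng1 at 1.67, Lman1 at 0.70 and F2rl3 at 0.45. Fgb, a fibrinogen chain, was too dim to test. Of 12 further fibrinolysis genes 3 rose and 1 fell (median 0.44). Serpinb2, which inhibits urokinase, rose by 2.58 (limma adjusted p = 0.003) and Mrc2, a collagen receptor that binds the urokinase receptor, by 1.09 (adjusted p = 2.27e-04). Serpine2, protease nexin 1, fell by 1.59 (adjusted p = 0.00446).

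The values within slides were compared next, since PPE 3 and PPE 4 shared slide 2 with 2 sham arrays and PPE 1 and PPE 2 shared slide 1 with 1. All 16 called members had the same sign on both slides, and 34 of the 35 tested did, Plat being the exception. Over all names 82.4% did, and 100% of called names, whose calls rest in large part on the arrays of these slides. C3 differed by 2.21 on slide 1 and 2.0 on slide 2, C3ar1 by 3.34 and 2.27, F3 by -1.30 and -1.11, and Plau by 1.41 and 0.61. The fit with slide as a block takes its change from slides 1 and 2, since an array alone on its slide adds nothing to it. Sham 4, sham 5 and PPE 5 thus had no part in that change. With slide as a block, 18 members rose and 4 fell, beside 14% and 10.3% of all names. All 16 calls remained, C1qb, C4b, Cfb and C6 passed as higher, and Masp2 and Cfd as lower, with the values given above. C1qa did not pass with the block either (0.37, adjusted p = 0.177). Of the 14 genes that rose, PPE 1 gave the highest PPE value for 9 and PPE 5 the lowest for 8.

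**Figure D5:**
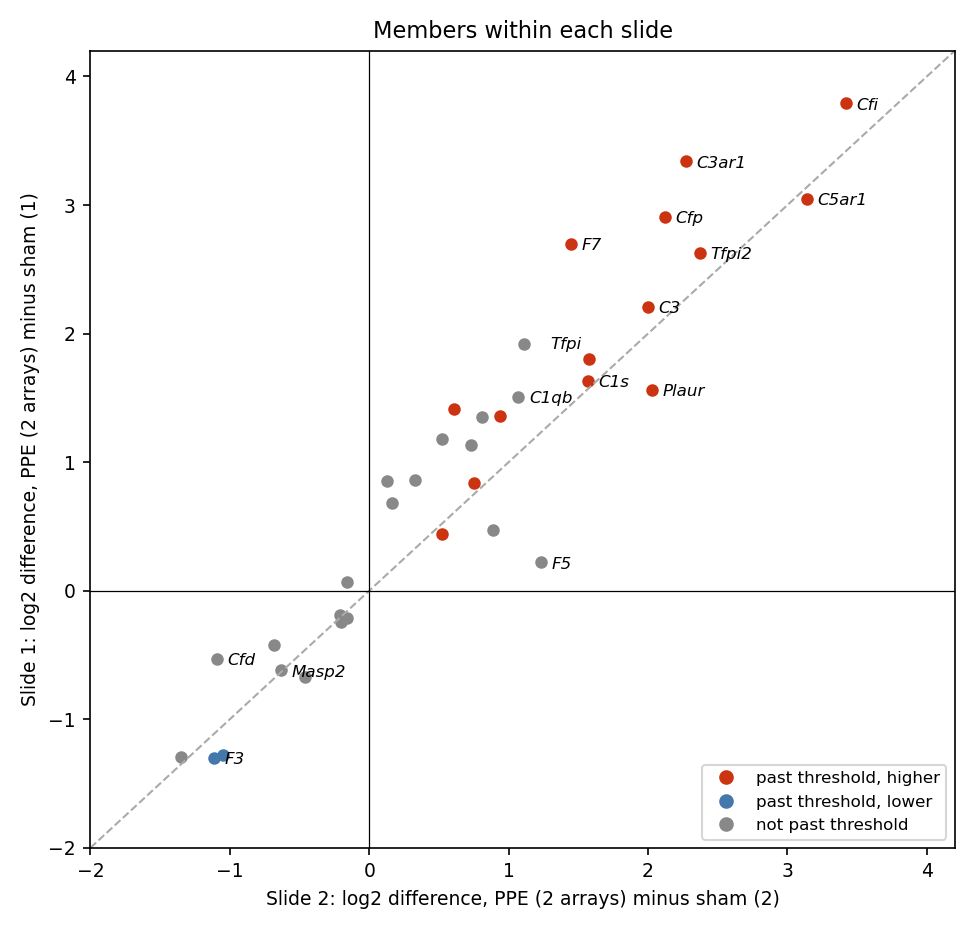
Log2 difference of PPE minus sham within slide 1 (y axis, 2 PPE and 1 sham array) against that within slide 2 (x axis, 2 and 2) for the 35 tested members. Red and blue mark members past the threshold over all arrays, grey the others, and the dashed line equal values. Called members lie on the same side of 0 on both slides, from C5ar1 at 3.05 and 3.14 to F3 at -1.30 and -1.11.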

How the data were processed

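Aortic RNA (500 ng, Cy5, red) was hybridised by the authors against universal mouse reference RNA (Cy3, green) on 2-colour Agilent arrays, with no dye swap, 1 aorta per array. Per the study's methods some arrays were left out for poor hybridisation or as outliers, and which ones is not stated. The authors extracted spots with Feature Extraction 10.7.3.1. For each spot the deposited columns give a linear intensity in both channels with its local background. The LogRatio that the authors deposited is the software's log10 of red over green, and was converted to log2. Values in the authors' series matrix are on the log2 scale and equal log2 of processed red over green on 100% of spots within 1e-04, with column medians between -0.16 and 0.123, and thus neither centred nor scaled further.

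Normexp background correction (offset 50, which draws dim probes towards 0) and loess within each array were run with limma 3.58.1 in R 4.3.3. Control and outlier spots were left out and spots of 1 probe averaged. Testing required red signal over background in 5 or more of the 10 arrays. A gene is its brightest tested probe. Groups come from the labels. They were compared with limma (lmFit, eBayes), unpaired, with Benjamini-Hochberg adjustment and a threshold of 0.01. The script was tested on simulated data. The 10 arrays limit the precision of all values. A bound stands against the higher of the probe's own signal and the lowest signal above background, on channel values after loess and Aquantile. Probe positions are those of the files (mm9), with no exon annotation used here, and promoters are RefSeq's (GRCm38.p6). The members and all lists were chosen with earlier results of these data known, so no list was tested. Values on every array are given for the 3 largest called rises and falls per arm, members above background in 1 group only, and 12 genes set by name. Of the other pathway lists at most 3 per list are named, with Serping1 and Fgb in any case. Some genes that met this rule are not reported here. Procr, Pros1, Lipe and Itgam were named after their values were seen. Deviations of same-numbered arrays correlated at -0.30 to 0.52, highest for number 5 and of both signs, so no pairing was used. Alternatives covered background, normalisation, filters, probe choice, slide and scan-day blocks, SAM (the study's test), leaving out arrays and, chosen after seeing the data, each channel alone as log2 of the deposited processed signal minus its 75th percentile per array.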

Additional observations from a re-analysis of the deposited data

Results flagged for a closer look

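Of 70 groups of 5 arrays examined over the 35 tested genes, 3 held an array that stood apart from the rest of its group by Dixon's test, where chance gives about 1 in 20. Thbd on PPE 2 was at 1.76, with the next PPE array at 1.24, and it is the one PPE value inside the sham range of that gene. Plat on PPE 1 was at 0.73, with the next at 0.22. Plau on PPE 4 was at -1.14, with the next at -0.74, and Plau is the called gene whose groups overlap.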

How the results depend on the processing

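Over the 10 fits that leave out 1 array, 13 to 15 members were higher and 2 to 3 lower, and 15 of the 16 called members kept their call in each, Plau being the exception. Over all names these fits called 2512 to 3615 higher and 1754 to 2352 lower. The calls by arm ran from 2 to 3 (classical and lectin), 2 to 3 (alternative and terminal), 4 to 5 (receptors and regulators), 6 to 6 (clotting) and 1 to 2 (fibrinolysis), and for other complement, clotting and fibrinolysis genes from 6 to 7, 2 to 3 and 3 to 5. With median centring in place of loess, 1 member was higher and 0 lower. The arms then held 0 (classical and lectin), 0 (alternative and terminal), 1 (receptors and regulators), 0 (clotting) and 0 (fibrinolysis) calls and the other lists 2, 0 and 0, and Cfd (0.23), F10 (0.65), F2r (0.48), Thbd (0.17), Gas6 (0.66) and Plat (0.53), none of them called with either normalisation, changed sign. The cause was not tested. Members called lower numbered 4 with slide as a fixed block, 5 as a random block and, in alternatives chosen after seeing the data, 4 with scan day as a block and 4 in the red channel alone. Over all names, those called lower numbered 2603 with scan day as a block and 3248 in the red channel, beside 2243 in the main fit. The red channel gave 20 higher members, 8 classical and lectin and 5 alternative and terminal calls, and Masp1 at 0.16. With the replicate number as a block, 14 members were higher and 4 lower, beside 3022 and 2283 over all names. The numbers were not taken as pairs, since the correlations of same-numbered arrays were of both signs. Classical and lectin calls became 5 with slide fixed, 5 with slide random, 4 with SAM and 1 on slide 2 alone. Alternative and terminal calls became 5, 5, 5 and 4 in the same order. Over all names, calls were 3146 higher and 2310 lower with slide fixed, 3987 and 2941 with slide random, and 4875 and 3263 with SAM. They were 1262 and 670 on slide 2 alone, beside 3116 and 2243 in the main fit. With slide random and with SAM, calls thus grew over all names as well as over members. On slide 2 alone (4 arrays) there were 2 clotting calls, 1 fibrinolysis call, and 3, 1 and 0 in the other lists. With probes above background on all 10 arrays 27 members were tested, of which 10 were higher and 2 lower, beside 2424 and 2072 over all names. Fibrinolysis had 1 call with probes above background on all 10 arrays and 1 with no filter on dim probes. On the scanner software's LogRatio and on the series matrix values C1qa stood at -0.17 and Masp1 at 0.21, and Pros1 lost its call. With the mean of tested probes F10 stood at 1.35. The offset and the filter limit what can be said of dim genes such as Cfi, Tfpi2 and F7 in sham.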
